A study of Mus musculus with 24 samples.

Results

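The serpins (serine protease inhibitors) of mouse liver were examined in RNA sequencing libraries from mice that lacked FoxO1, PPARα or both in the liver. Every gene whose symbol is Serpin followed by a clade letter from a to i and a number was taken, which gave 69 of the 34945 named genes in the deposited expression table. Of these, 28 had a mean of at least 1 TPM over the 24 libraries and are described here. The other 41 were below that level, and 19 of them were at 0 in all 24 libraries. TPM, the usual unit of such tables, is a gene's share of a library's transcripts, corrected for transcript length.

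FoxO1 is a transcription factor that insulin holds out of the nucleus, and PPARα is a nuclear receptor for fatty acids that is active in the fasted liver. Each of 8 groups had 3 libraries of whole liver from mice fasted for 4 h, fed for 3 weeks either the regular diet, written RD, or the high-fat diet, written HFD. The controls, called WT here as in the titles, were labelled FoxO1lox/lox; PPARαlox/lox. The knockouts were labelled FoxO1-/- (LFKO), PPARα-/- (LPKO) and FoxO1-/-; PPARα-/- (LFPKO), and came from crosses of floxed mice with Albumin-cre mice, in which the recombinase is made in hepatocytes, so other liver cells should keep both genes. Strain, age, sex and whether controls carried the Cre transgene were not given in the labels. Nothing in the labels says that replicates were separate animals, so the p-values refer to the spread among libraries, which may be technical. Values below are given in the order of replicates 1, 2 and 3.

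Most serpins trap a protease: the enzyme cuts an exposed bait, the reactive centre loop, and the serpin then folds around the cut and carries the enzyme into a dead complex. The letters of that loop decide which protease is caught. Hepatocytes secrete many serpins into blood, among them inhibitors of neutrophil elastase, of clotting and of complement, while some members carry hormones or assist collagen folding and inhibit nothing, and those of clade B lack the usual secretion signal and act mostly inside cells.

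Among the most abundant serpins in these livers were the copies of alpha-1-antitrypsin, which is a single gene in humans and a cluster in mice. The human protein is the main inhibitor of neutrophil elastase. Which protease each mouse copy inhibits was not examined here. Over the 1239 coding bases common to Serpina1a, Serpina1b, Serpina1c, Serpina1d and Serpina1e, the 10 pairs of copies were 96.29% to 98.47% identical. The stretch of 60 bases in which they differ most is shown because it codes for part of the reactive centre loop, the bait that sets the copies apart, Serpina1e among them, the copy that moved in these data. It held 18 of the 86 variable positions, against a median of 4 over windows of that length. The sequences were read from GRCm38 with the GENCODE M21 annotation, on the minus strand, coding bases 1102 to 1161, and capitals mark positions at which the 5 copies are not all the same.
Serpina1a (chr12:103853756-103853815): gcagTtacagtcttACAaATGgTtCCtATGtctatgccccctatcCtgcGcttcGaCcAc
Serpina1b (chr12:103728323-103728382): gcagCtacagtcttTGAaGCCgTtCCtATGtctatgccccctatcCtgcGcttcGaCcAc
Serpina1c (chr12:103895093-103895152): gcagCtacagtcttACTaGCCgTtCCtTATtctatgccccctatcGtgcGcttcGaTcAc
Serpina1d (chr12:103763761-103763820): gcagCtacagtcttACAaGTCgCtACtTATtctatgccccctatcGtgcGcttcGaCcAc
Serpina1e (chr12:103947099-103947158): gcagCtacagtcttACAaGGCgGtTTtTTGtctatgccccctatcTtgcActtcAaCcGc
Against Serpina1a, the differences within this stretch number 6 in Serpina1b, 10 in Serpina1c, 9 in Serpina1d and 12 in Serpina1e.

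Because the copies are so alike, part of each one's reads also fits another gene, and the authors' software shares such reads out by an estimate. Of all 31-base words in its annotated transcripts, Serpina1c shared 82.2% with another gene, Serpina1a 65.2%, Serpina1d 64.7%, Serpina1e 54.2% and Serpina1b 44.7%. The level of a single copy is therefore less certain than that of Serpina6, Serpina7, Serpina12, Serping1, Serpinf1, Serpinf2, Serpind1 or Serpinh1, which shared none. Serpina3m shared 35.0%, mostly with Serpina3k, and these genes overlap in the annotation, both starting at base 104338486 of chromosome 12. Serpina11 shared 37.2% with Gm28577. Of the 28 genes, 15 lie on chromosome 12 between bases 103614786 and 104414329, in the cluster that runs from Serpina10 to Serpina3n. A further 4 (Serpinb1a, Serpinb6a, Serpinb6b and Serpinb9) lie on chromosome 13, 3 (Serpinc1, Serpine2, Serpinb8) on chromosome 1, 2 (Serpinf1, Serpinf2) on chromosome 11, and Serpind1, Serping1, Serpinh1 and Serpina7 on chromosomes 16, 2, 7 and X.

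Serpin transcripts made up 3.76% to 6.30% of all TPM in a library. Mean levels over the 24 libraries ran from 9963 TPM for Serpina1e and 9140 TPM for Serpina1c through 7535 TPM for Serpina3k and 2361 TPM for Serpinc1 down to 1.70 TPM for Serpinb6b, the lowest of the 28. Among those just below the level of 1 TPM were Serpina3f at 0.797 TPM and Serpina9 at 0.689 TPM. Secreted members thus held the top of the range, and all 5 clade B genes lay below 10 TPM on average.

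Foxo1 itself stood at 0.250 to 0.484 TPM in the 12 LFKO and LFPKO libraries and at 4.06 to 9.94 TPM in the other 12. It was highest in HFD LPKO, at 9.37, 9.94 and 5.53 TPM, beside 4.06 to 5.52 TPM in HFD WT and 4.22 to 4.71 TPM in RD LPKO. Ppara ran from 57.5 to 87.3 TPM under the LPKO and LFPKO labels and from 37.1 to 56.1 TPM in WT, so its level does not check the PPARα label. Hepatocyte markers were the leading cell type list, at 34375 to 88422 TPM summed over 7 genes. The Mup genes, which encode the major urinary proteins, took 5.05% to 30.7% of TPM, with group means of 9.44% in RD WT, 5.98% in RD LFKO, 11.8% in RD LPKO, 13.2% in RD LFPKO, 25.1% in HFD WT, 11.7% in HFD LFKO, 17.3% in HFD LPKO and 24.2% in HFD LFPKO. Since TPM is a share of a total, a large Mup share lowers the TPM of other genes. The deposited values did not add up to the same total in every library. Totals ran from 956884 TPM in HFD WT replicate 2 to 993725 TPM in RD LFKO replicate 2. The median log2 difference over all 10551 genes with a mean of at least 1 TPM was -0.29 for HFD WT against RD WT, 0.21 for HFD LFKO against HFD WT, 0.11 for HFD LPKO against HFD WT, -0.13 for HFD LFPKO against HFD LFKO and 0.18 for the change in the LFKO effect with diet. In the other 9 comparisons it was within 0.1 of 0. For serpins called in those comparisons, differences are also given relative to that median. In whole tissue, fewer cells of a type and less RNA per cell cannot be told apart.

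Differences between groups were tested with limma on log2(TPM + 1) across all 10551 genes, and a gene was called at an adjusted p under 0.05. Log2 differences are on that scale, which understates changes of genes at a few TPM. Median-of-ratios scaling, which brings the typical gene of each library to the same level, was the alternative to the deposited scale. Comparisons within a diet share their WT or knockout libraries, so their values are only set side by side. Over 11 comparisons between pairs of groups there were 44 calls on serpins. They fell on 15 genes, and 13 genes were never called. These totals stand without the matching share of all genes and are not read as particular to serpins. Shares of all genes are given below for each comparison.

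Loss of FoxO1 alone lowered a small set. In RD LFKO against RD WT, Serpine2 and Serpinb1a fell and 0 of 28 rose, where 0.597% of all genes tested fell and 1.07% rose; the median log2 difference was -0.02 over the serpins and 0.03 over all genes. In HFD LFKO against HFD WT, Serpine2, Serpina12 and Serpina1e fell, where 0.730% of all genes fell, and Serpina6, Serpina3m, Serpinb8 and Serpinc1 rose, where 12.7% of all genes rose. The serpin median there was 0.13 against 0.21 for all genes. The share of serpins that rose, 4 of 28, is thus near that of genes at large.

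In RD LPKO against RD WT, Serpina7 fell (2.33% of all genes fell) and Serpina10, Serping1 and Serpinb9 rose (3.52% rose). In HFD LPKO against HFD WT, 6 of 28 rose, namely Serpinb1a, Serpine2, Serping1, Serpinb6b, Serpina3m and Serpina10, where 3.60% of all genes rose. None was called lower there, where 1.13% of all genes were. The serpin medians were 0.10 and 0.25 on the 2 diets, beside 0.04 and 0.11 over all genes.

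With both factors missing, Serpina7 fell and Serpina10 and Serping1 rose in RD LFPKO against RD WT, where 3.45% of all genes fell and 4.00% rose. In HFD LFPKO against HFD WT, Serpina10, Serping1 and Serpinb8 rose and none fell, beside 1.62% and 1.47% of all genes. The serpins had medians of 0.13 and 0.20, and all genes of 0.01 and 0.07. Neither Serpina12, Serpina1e nor Serpine2 was called lower than WT in these livers.

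Setting the double knockout against each single knockout separates what the second deletion adds. In RD LFPKO against RD LFKO, Serpina12, Serpina1e and Serpine2 were higher and none was lower, where 1.95% and 3.13% of all genes were. In HFD LFPKO against HFD LFKO the same 3 genes were higher (1.85% of all genes), and Serpina7, Serpina6 and Serpina3m were lower (8.74%). Against LPKO, few genes of any kind differed: in RD LFPKO 0.0190% of all genes were higher and 0.104% lower, and no serpin was called by limma, with 3 at an unadjusted p under 0.05 and the smallest adjusted p, 0.0677, for Serpinb1a. In HFD LFPKO, Serpinb1a and Serpinb6b were lower than in HFD LPKO (0.284% of all genes) and none was higher (0.0663%).

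The diet itself changed 8 serpins in WT liver. Serpina12, Serpina3n and Serpine2 were higher on the high-fat diet, where 1.05% of all genes were, and Serpinb1a, Serpina7, Serpinb8, Serpinb6a and Serpinc1 were lower, where 29.8% of all genes were. The share of serpins that were lower is below that of genes at large, and the serpin median, -0.14, lay above the -0.29 of all genes. Whether a knockout's effect changed with diet was tested directly, and no serpin was called for LFKO (0.00948% of all genes called), LPKO (0.171%) or LFPKO (0.0284%). At an unadjusted p under 0.05 there were 4, 3 and 1 serpins, and the smallest adjusted p was 0.258 and 0.0659 for Serpina3m in LFKO and LPKO and 0.327 for Serpinb1a in LFPKO. So no difference between diets in a knockout's effect is claimed below.

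Scaling changed the balance of calls wherever many genes shifted together. In HFD WT against RD WT, median-of-ratios scaling turned 3 higher and 5 lower serpins into 5 higher and 1 lower, beside 3.71% of all genes higher and 4.09% lower, and moved the serpin median from -0.14 to 0.17. Serpina12, Serpina3n, Serpine2 and Serpinb1a held there, Serpina7, Serpinb8, Serpinb6a and Serpinc1 did not, and Serping1 (0.32, adjusted p = 0.0291) and Serpina11 (0.52, adjusted p = 0.0343) were called higher. In HFD LFKO against HFD WT, 4 higher and 3 lower became 3 and 4 (2.55% and 1.72% of all genes), with Serpina3n lower at -0.50 (adjusted p = 0.0445) and the serpin median at -0.11.

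In the other comparisons scaling moved single genes. RD LFKO against RD WT had 1 higher and 2 lower (2.32% and 1.36% of all genes), and RD LPKO 3 higher and 2 lower (4.75% and 4.27%), with Serpina3m lower at -0.58 (adjusted p = 0.0413). HFD LFPKO against HFD WT had 2 higher and 1 lower (2.24% and 3.28%), with Serpina7 lower at -1.73 (adjusted p = 0.0463). RD LFPKO against RD LFKO had 4 higher and 1 lower (3.49% and 4.90%), with Serpinh1 higher (0.54, adjusted p = 0.0494) and Serpinf2 lower (-0.30, adjusted p = 0.0498). In HFD LFPKO against HFD LFKO, Serping1 was called higher as well (0.42, adjusted p = 0.00311).

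**Figure D1:**
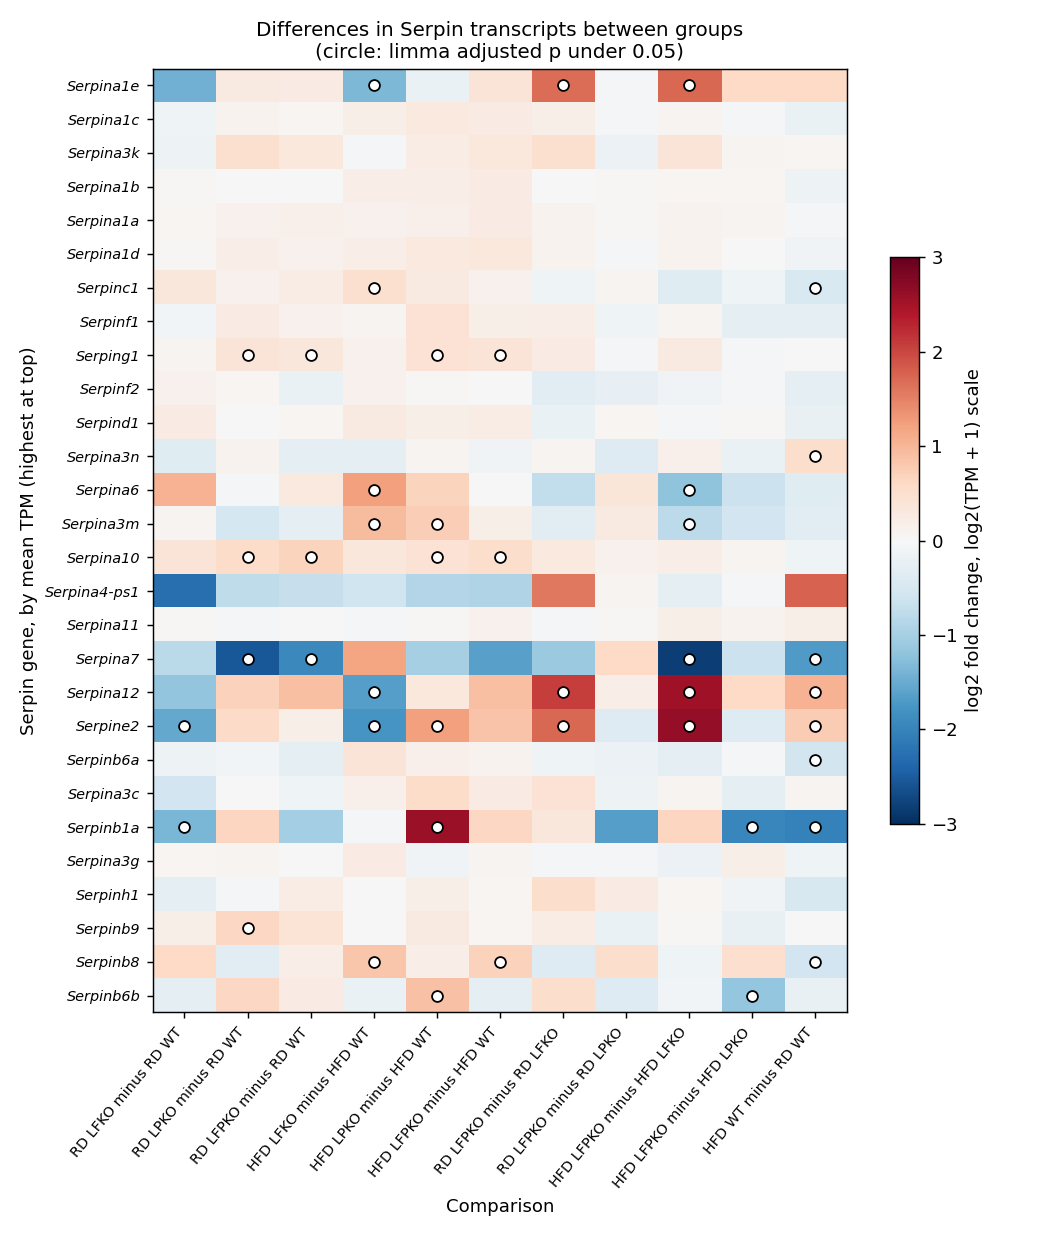
Log2 differences of the 28 serpin genes (rows, by mean TPM) in 11 comparisons between groups of 3 libraries (columns). Red is higher in the first-named group, blue is lower, and a circle marks a limma adjusted p under 0.05. The circles lie in 15 of the 28 rows, a count given without the matching share of all genes, and the Serpina1a to Serpina1d rows hold none.

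Serpina1e was the copy of alpha-1-antitrypsin that varied. On the regular diet its levels were 6925, 11666 and 7507 TPM in WT, 2439, 2553 and 4962 in LFKO, 8218, 13165 and 10031 in LPKO and 11461, 8774 and 10191 in LFPKO. After high-fat feeding they were 12895, 13529.9 and 12069 TPM in WT, 10551, 5196 and 2324 in LFKO, 10876, 9684 and 12903 in LPKO and 18982, 19704 and 12501 in LFPKO. Every LFKO library lay below every other library of the same diet except that HFD LFKO replicate 1 exceeded HFD LPKO replicate 2, and LFKO replicates spread widely on the high-fat diet.

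In RD LFKO, mean Serpina1e was 3318 ± 1425 TPM (SD, n = 3) against 8699 ± 2586 TPM in RD WT, a log2 difference of -1.43 ± 0.37 (SE) with an adjusted p of 0.0546, so it was not called. In HFD LFKO it fell by 1.35 ± 0.37 on the log2 scale (adjusted p = 0.0247), or -1.56 relative to the median gene. Against LFKO, the double knockout held 3.06 times the mean TPM on the regular diet (log2 difference 1.68 ± 0.37, adjusted p = 0.0087) and 2.83 times on the high-fat diet (1.73 ± 0.37, adjusted p = 0.00438; 1.87 relative to the median gene). The call in HFD LFKO was lost without HFD WT replicate 2, HFD LFKO replicate 2 or HFD LFKO replicate 3, with adjusted p-values up to 0.172 and log2 differences down to -1.88 and up to -0.79. The call in RD LFPKO against RD LFKO was lost without RD LFKO replicate 1 (adjusted p = 0.0603).

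Serpina1a, Serpina1b, Serpina1c and Serpina1d held steady beside it. Their summed level had group means from 21549 TPM in HFD WT to 25952 TPM in HFD LFPKO, and the largest log2 difference of any of the 4 in the 11 comparisons was 0.31, with no call. Serpina1e's share of the 5 copies went from 26.7% ± 6.4 (SD, n = 3) in RD WT to 12.3% ± 4.5 in RD LFKO and from 37.3% ± 2.1 in HFD WT to 19.1% ± 11.8 in HFD LFKO, and was 39.6% ± 8.4 in HFD LFPKO. The sum of all 5 copies depends less than a single copy on how shared reads were divided among them. It was higher in LFPKO than in LFKO on the regular diet (log2 difference 0.40, adjusted p = 0.0238) and the high-fat diet (0.51, adjusted p = 0.00229). It was not called in LFKO against WT (-0.28, adjusted p = 0.19, and -0.18, adjusted p = 0.214). A difference in a single copy thus appears as a smaller difference in the family's total.

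Within HFD LFKO, Serpina1e was ordered as the Mup share was. In HFD LFKO replicates 1, 2 and 3, Mup genes took 17.7%, 10.9% and 6.50% of TPM while Serpina1e stood at 10551, 5196 and 2324 TPM. The orders also matched in RD LPKO (Mup shares of 10.38%, 14.43% and 10.44%) and HFD LPKO (13.4%, 12.5% and 26.1%). In RD WT the order was not the same: replicates 1, 2 and 3 had Mup shares of 11.7%, 7.99% and 8.61% and Serpina1e at 6925, 11666 and 7507 TPM. Nor was it in RD LFKO, RD LFPKO, HFD WT and HFD LFPKO. Of the group means, RD LFKO was lowest in both (5.98% and 3318 TPM). HFD WT (25.1% and 12831 TPM) and HFD LFPKO (24.2% and 17062 TPM) were highest in both. The part of the Mup share in the result was not tested. Without Mup and mitochondrial transcripts, the Serpina1e calls kept their direction and their side of the threshold.

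**Figure D2:**
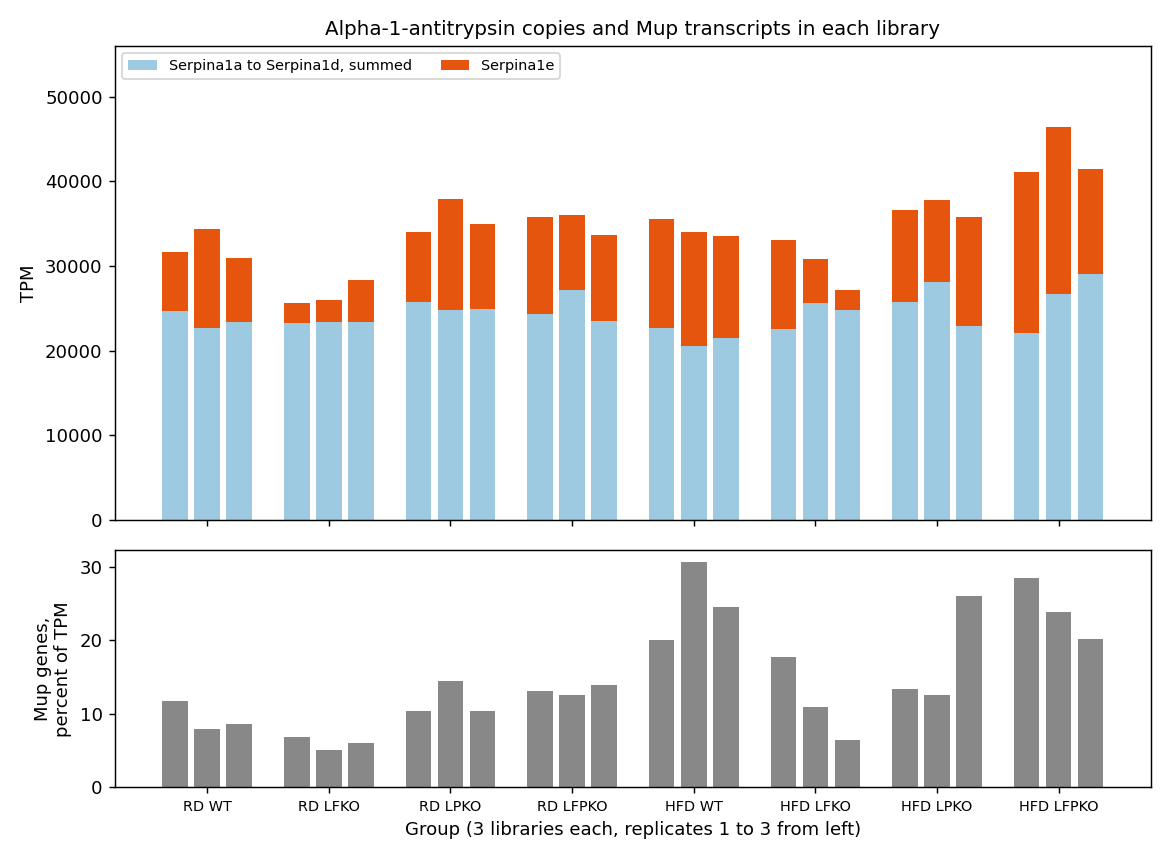
Upper axis: summed TPM of Serpina1a to Serpina1d (blue) and, stacked on it, Serpina1e (orange) in each of the 24 libraries. Lower axis: percent of TPM from Mup genes in the same libraries; among the HFD LFKO libraries the orange part is largest where the Mup share is 17.7% and smallest where it is 6.50%, while the blue parts average 24310 TPM.

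The promoters of the 5 copies were compared in a window of 100 bases upstream of the annotated starts, from RefSeq on GRCm38.p6. It was set to end with the longest run common to the 5, 55 bases, so much of its likeness follows from that choice. Its place differed between copies, with bases -162 to -63 in Serpina1e and bases -100 to -1 in Serpina1d. It held 10 variable positions in all and does not measure the likeness of whole promoters. Serpina1e differed there from Serpina1a and Serpina1c at 2 positions each, from Serpina1b at 3 and from Serpina1d at 6. Serpina1e and Serpina1a are shown because the former varied and the latter did not, with capitals at the positions that vary among the 5 copies, on the minus strand.
Serpina1e (chr12:103956960-103957059): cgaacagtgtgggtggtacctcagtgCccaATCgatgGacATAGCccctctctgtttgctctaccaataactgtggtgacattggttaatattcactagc
Serpina1a (chr12:103863625-103863724): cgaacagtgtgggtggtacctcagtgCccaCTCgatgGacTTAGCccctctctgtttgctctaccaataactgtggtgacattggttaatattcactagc
Promoters of 300 bases were at hand for 21 of the 28 genes and were searched on both strands; those of Serpina6, Serpina10, Serping1, Serpinb1a, Serpina3m, Serpina3k and Serpina4-ps1 were not searched. The FoxO motif GTAAACA was in none of those 21, and in 3.65% of all 32851 promoters. The PPAR-RXR repeat (AGGTCA, any base, AGGTCA) was in none, and in 0.0396% of all. The STAT motif TTCNNNGAA was in those of Serpina11, Serpina3g and Serpinb6a, and in 8.30% of all promoters. These are matches of letters in a short window and say nothing about binding elsewhere.

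Serpina12 (vaspin), a secreted serpin that inhibits kallikrein 7 and is linked to insulin sensitivity, followed a similar course at a far lower level. On the regular diet Serpina12 stood at 3.89, 11.5 and 11.1 TPM in WT, 2.31, 2.83 and 4.06 in LFKO, 14.8, 14.9 and 11.5 in LPKO and 27.8, 10.4 and 13.7 in LFPKO. After high-fat feeding it stood at 16.2, 18.6 and 18.5 TPM in WT, 6.75, 5.37 and 3.27 in LFKO, 19.9, 23.2 and 23.5 in LPKO and 38.4, 39.6 and 25.5 in LFPKO. In HFD LFKO all 3 libraries lay below all other libraries of that diet, while on the regular diet RD LFKO replicate 3 lay just above RD WT replicate 1.

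In HFD LFKO Serpina12 fell by 1.65 ± 0.33 (adjusted p = 0.00467), or -1.86 relative to the median gene, and the mean TPM in HFD WT was 3.46 times as high. In RD LFKO the log2 difference was -1.18 ± 0.33 (adjusted p = 0.0717). The double knockout exceeded LFKO 5.64 times on the regular diet (2.08 ± 0.33, adjusted p = 0.000325) and 6.72 times on the high-fat diet (2.55 ± 0.33, adjusted p = 2.1e-05; 2.68 relative to the median gene). Those 3 calls held with any 1 of the 6 libraries left out. HFD WT exceeded RD WT 2.01 times (1.05 ± 0.33, adjusted p = 0.0231; 1.34 relative to the median gene), and this was lost without RD WT replicate 1, which leaves a log2 difference of 0.61, or HFD WT replicate 2.

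Serpine2 (protease nexin 1), which inhibits thrombin and plasminogen activators at cell surfaces, had the clearest response to FoxO1 loss. In the regular diet groups Serpine2 measured 4.19, 4.15 and 3.13 TPM in WT, 0.594, 0.726 and 0.681 in LFKO, 5.67, 8.63 and 4.79 in LPKO and 4.62, 5.16 and 3.70 in LFPKO. In the high-fat diet groups it measured 7.92, 8.91 and 5.23 TPM in WT, 1.52, 1.72 and 1.03 in LFKO, 16.1, 15.9 and 23.99 in LPKO and 13.1, 22.4 and 8.96 in LFPKO. On each diet the 3 LFKO libraries were the lowest, with no overlap with any other group.

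Serpine2 fell by 1.53 ± 0.25 in RD LFKO (adjusted p = 0.00173), where mean TPM in WT was 5.73 times as high. In HFD LFKO it fell by 1.77 ± 0.25 (adjusted p = 0.00037), where HFD WT was 5.16 times as high and the difference from the median gene was -1.98. The double knockout exceeded LFKO 6.74 times on the regular diet (1.71 ± 0.25, adjusted p = 0.00015) and 10.4 times on the high-fat diet (2.63 ± 0.25, adjusted p = 5.3e-07; 2.76 relative to the median gene). HFD LPKO exceeded HFD WT 2.54 times (1.24 ± 0.25, adjusted p = 0.00547; 1.13 relative to the median gene). All 5 calls held with any 1 library left out. HFD WT also exceeded RD WT (0.77 ± 0.25, adjusted p = 0.0279; 1.06 relative to the median gene), but not without RD WT replicate 2, RD WT replicate 3, HFD WT replicate 1 or HFD WT replicate 2 (adjusted p up to 0.14). Stellate cells and fibroblasts also make Serpine2: their 11 markers summed to 128 to 194 TPM in RD WT, 119 to 151 in RD LFKO, 52.4 to 75.1 in HFD WT and 111 to 117 in HFD LFKO. In HFD LFKO 4 of 10 tested markers were called higher, beside 12.7% of all genes, and 0 of 10 after scaling; their part in the result was not tested.

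Serpina6 (corticosteroid-binding globulin), the blood carrier of glucocorticoids, moved the opposite way. Serpina6 levels on the regular diet were 194, 181 and 195 TPM in WT, 407, 398 and 371 in LFKO, 205, 134 and 219.6 in LPKO and 178, 348 and 203 in LFPKO. Those on the high-fat diet were 183, 107 and 164 TPM in WT, 273, 352 and 437 in LFKO, 241, 228 and 231 in LPKO and 95.2, 130.2 and 266 in LFPKO. On both diets each LFKO library lay above every library of the other groups. The margin over LFPKO was small on the high-fat diet, with 273 TPM in the lowest LFKO library and 266 TPM in the highest LFPKO library. LFPKO libraries spread widely.

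Serpina6 rose 2.34 times in HFD LFKO over HFD WT (log2 difference 1.23 ± 0.30, adjusted p = 0.0131; 1.03 relative to the median gene). In RD LFKO the difference was 1.04 ± 0.30 with an adjusted p of 0.0817, and it was called after median-of-ratios scaling, at 0.999 and an adjusted p of 0.04. HFD LFPKO lay below HFD LFKO by -1.22 ± 0.30 (adjusted p = 0.0102; -1.08 relative to the median gene). The call against WT was lost without HFD WT replicate 2, HFD LFKO replicate 2 or HFD LFKO replicate 3 (adjusted p up to 0.104), and that against LFKO without HFD LFKO replicate 3 or HFD LFPKO replicate 1 (up to 0.0848). Within HFD LFKO, Serpina6 was highest in the library with the lowest Mup share.

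**Figure D3:**
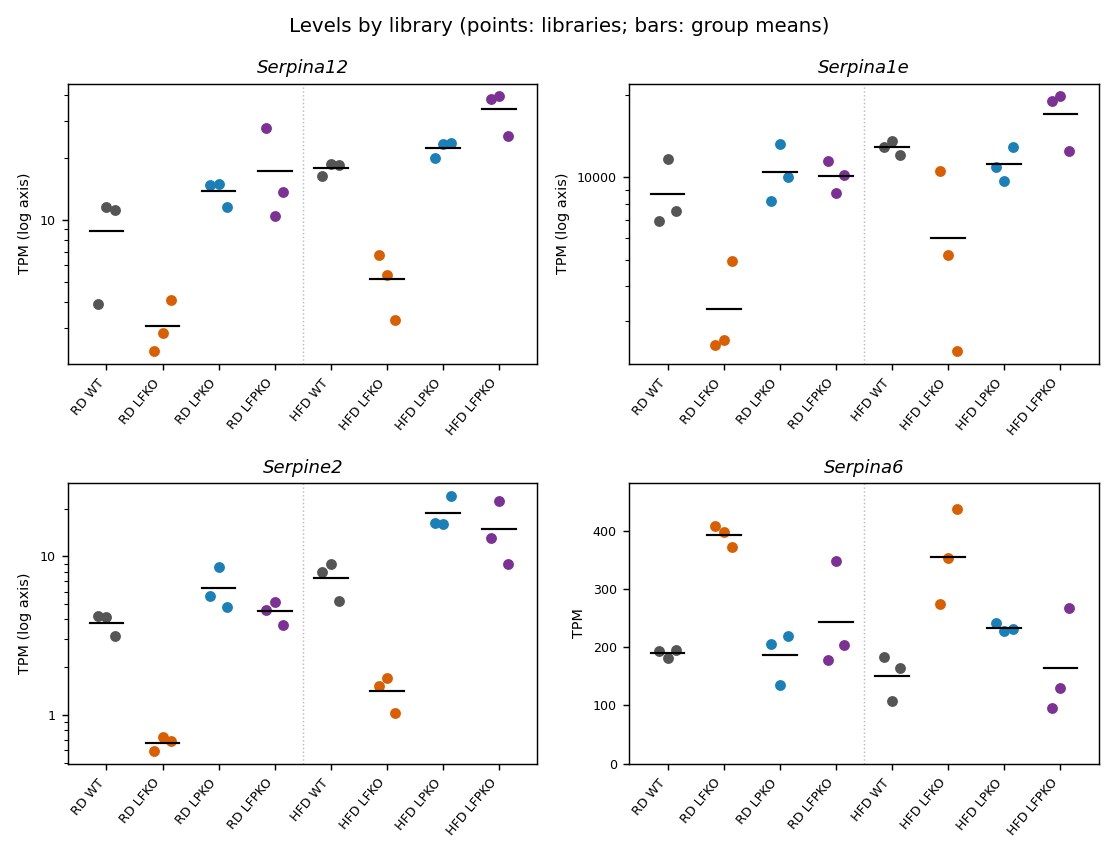
TPM of Serpina12, Serpina1e, Serpine2 (log axes) and Serpina6 (linear axis) in each library, with points for libraries and bars for group means of 3. The orange LFKO points are the lowest for Serpine2 on both diets (means 0.667 and 1.42 TPM) and the highest group for Serpina6 (means 392 and 354 TPM).

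Serpina7 (thyroxine-binding globulin), a carrier of thyroid hormone encoded on the X chromosome, was lowest where PPARα was missing. Its regular diet levels were 80.0, 59.3 and 54.0 TPM in WT, 19.0, 35.0 and 68.2 in LFKO, 10.2, 7.64 and 13.2 in LPKO and 24.5, 8.17 and 20.0 in LFPKO. Its high-fat diet levels were 37.7, 7.92 and 21.5 TPM in WT, 41.9, 44.2 and 45.4 in LFKO, 16.4, 11.4 and 3.64 in LPKO and 3.26, 6.39 and 7.22 in LFPKO. On the regular diet no LPKO or LFPKO library reached any WT library, whereas on the high-fat diet LPKO overlapped WT, in which 1 library stood at 7.92 TPM.

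Mean Serpina7 in RD WT was 6.22 times that in RD LPKO (log2 difference -2.54 ± 0.52, adjusted p = 0.00452) and 3.67 times that in RD LFPKO (-1.93 ± 0.52, adjusted p = 0.0261). In HFD LFKO it was 7.80 times that in HFD LFPKO (-2.81 ± 0.52, adjusted p = 0.00113; -2.68 relative to the median gene). The RD LPKO and HFD LFPKO calls held with any 1 library left out, and the RD LFPKO call was lost without any of the 3 RD WT libraries or RD LFPKO replicate 2 or 3 (adjusted p up to 0.124). HFD LPKO and HFD LFPKO against HFD WT gave -0.99 (adjusted p = 0.304) and -1.64 (adjusted p = 0.106) and were not called. HFD WT lay below RD WT by -1.70 ± 0.52 (adjusted p = 0.0213; -1.41 relative to the median gene), which was not called after scaling (adjusted p = 0.0949) or without RD WT replicate 1 or HFD WT replicate 2.

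Other genes of thyroid and steroid hormone transport and handling were read beside these carriers, from a list of 9, all tested. Dio1, which activates thyroid hormone, and Thrsp, a thyroid hormone responsive gene, rose in RD LFKO (0.90, adjusted p = 0.00104, and 2.001, adjusted p = 0.0278) and in RD LFPKO (0.996, adjusted p = 0.000114, and 1.64, adjusted p = 0.0302), and Thrsp rose in RD LPKO (1.67, adjusted p = 0.0331). On the high-fat diet in WT, Dio1 and Thrsp were higher (1.05% of all genes) and 5 of the 9 lower (29.8%), Ttr, another thyroxine carrier, at -0.59 (adjusted p = 0.00876); after scaling 2 were higher and 0 lower. Hsd11b1, which regenerates glucocorticoid, rose in HFD LPKO (0.73, adjusted p = 0.0334). The list's median was 0.17 in RD LFKO and 0.11 in RD LPKO, beside 0.03 and 0.04 over all genes.

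Serpina10 (protein Z-dependent protease inhibitor), which blocks clotting factors X and XI, was higher in all 4 comparisons of PPARα-deficient liver with WT. On the regular diet Serpina10 measured 91.8, 89.3 and 89.2 TPM in WT, 109, 115 and 129.6 in LFKO, 132, 131 and 132 in LPKO and 159.9, 145 and 128 in LFPKO. After high-fat feeding it measured 76.7, 76.5 and 94.3 TPM in WT, 101, 102 and 108 in LFKO, 134, 94.8 and 110.5 in LPKO and 111, 142 and 107 in LFPKO. On both diets each LPKO and LFPKO library lay above each WT library, and so did each LFKO library.

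Serpina10 rose 1.46 times in RD LPKO (0.54 ± 0.13, adjusted p = 0.0121), 1.60 times in RD LFPKO (0.67 ± 0.13, adjusted p = 0.00187), 1.37 times in HFD LPKO (0.44 ± 0.13, adjusted p = 0.0467; 0.34 relative to the median gene) and 1.46 times in HFD LFPKO (0.53 ± 0.13, adjusted p = 0.0194). In RD LFKO the log2 difference was 0.38 ± 0.13 (adjusted p = 0.149). The RD LFPKO call held with any 1 library left out, and the RD LPKO call was lost without RD LPKO replicate 3 (adjusted p = 0.0511). The HFD LPKO call was lost after median-of-ratios scaling (adjusted p = 0.172) and without HFD WT replicate 1 or 2 or HFD LPKO replicate 1 or 3. The HFD LFPKO call was lost without HFD WT replicate 1 or 2 or HFD LFPKO replicate 2 (adjusted p up to 0.159).

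Serping1 (C1 inhibitor), which restrains the first complement proteases, plasma kallikrein and factor XII, gave small but even differences. Serping1 on the regular diet stood at 553, 499 and 508 TPM in WT, 535, 526 and 597 in LFKO, 695, 649 and 679 in LPKO and 675, 645 and 657 in LFPKO. Serping1 on the high-fat diet stood at 509, 503 and 525 TPM in WT, 517, 571 and 582 in LFKO, 704, 725 and 644 in LPKO and 574, 750.2 and 684 in LFPKO. No LPKO or LFPKO library overlapped the WT libraries of its diet.

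Serping1 rose 1.30 times in RD LPKO (0.38 ± 0.09, adjusted p = 0.0205), 1.27 times in RD LFPKO (0.34 ± 0.09, adjusted p = 0.0301), 1.35 times in HFD LPKO (0.43 ± 0.09, adjusted p = 0.0107; 0.32 relative to the median gene) and 1.31 times in HFD LFPKO (0.38 ± 0.09, adjusted p = 0.0295). These calls sat near the threshold: the HFD LFPKO call was lost after scaling (adjusted p = 0.0532), and each was lost when some single libraries were left out. For RD LPKO these were RD WT replicates 2 and 3 and RD LPKO replicates 1 and 3, for RD LFPKO RD WT replicates 2 and 3 and all 3 RD LFPKO libraries. For HFD LPKO they were HFD WT replicate 2 and HFD LPKO replicate 2, and for HFD LFPKO all 3 HFD WT libraries and HFD LFPKO replicates 2 and 3. The largest adjusted p among them was 0.209.

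**Figure D4:**
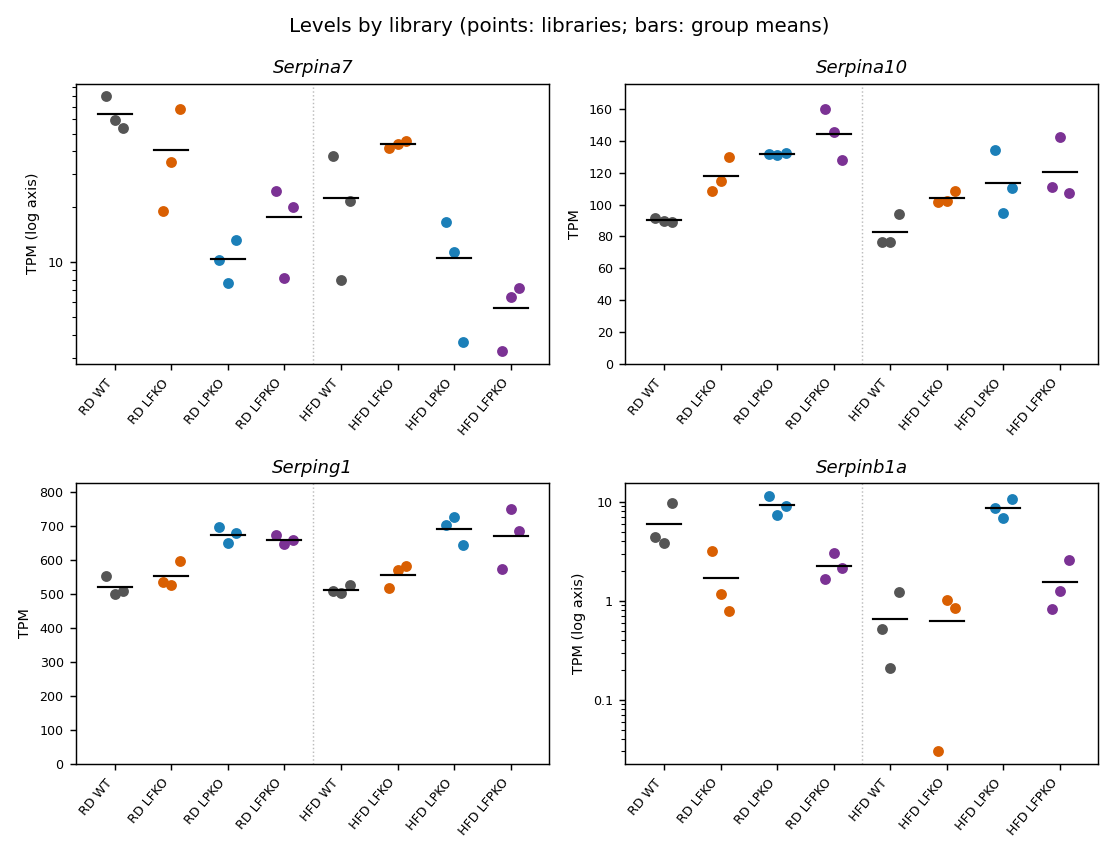
TPM of Serpina7 and Serpinb1a (log axes) and of Serpina10 and Serping1 (linear axes from 0) in each library, with points for libraries and bars for group means of 3. The blue LPKO and purple LFPKO points of Serpina10 and Serping1 lie above the grey WT points on both diets, and those of Serpina7 lie below them on the regular diet (means 10.4 and 17.5 TPM against 64.4 TPM).

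Serpinc1 (antithrombin), the chief inhibitor of thrombin and factor X, was the most abundant clotting inhibitor. Regular diet levels of Serpinc1 were 2471, 2241 and 2376 TPM in WT, 2858, 3133 and 3038 in LFKO, 2641, 2454 and 2617 in LPKO and 2748, 2778 and 2692 in LFPKO. High-fat diet levels were 1882, 1473 and 1877 TPM in WT, 2065, 2534 and 2746 in LFKO, 1973, 2406 and 1921 in LPKO and 1622, 1958 and 2167 in LFPKO. On each diet the LFKO libraries lay above the WT libraries.

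Serpinc1 rose 1.40 times in HFD LFKO (0.49 ± 0.13, adjusted p = 0.019; 0.28 relative to the median gene) and was lower in HFD WT than in RD WT (-0.45 ± 0.13, adjusted p = 0.016; -0.15 relative to the median gene). Neither was called after median-of-ratios scaling (0.25, adjusted p = 0.128, and -0.10, adjusted p = 0.52) or without Mup and mitochondrial transcripts. Single libraries also ended the calls: HFD WT replicate 2 and HFD LFKO replicates 2 and 3 for the first, RD WT replicate 3 and HFD WT replicate 2 for the second. Serpind1 (heparin cofactor II), a thrombin inhibitor, ranged from 237 to 366 TPM and Serpinf2 (alpha-2-antiplasmin), which stops plasmin, from 304 to 507 TPM, and neither was called on the deposited scale. Their smallest adjusted p-values were 0.0735 in HFD LFKO against HFD WT and 0.0941 in HFD WT against RD WT.

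Of 26 genes for clotting, fibrinolysis and contact proteases and their cofactors, 24 were tested. Pros1 (protein S), a cofactor in shutting clotting down, rose in RD LPKO (0.64, adjusted p = 0.00086; 36.8 ± 0.9 TPM against 23.3 ± 2.6 TPM), in HFD LPKO (0.59, adjusted p = 0.00286) and in HFD LFPKO (0.49, adjusted p = 0.0136), and in RD LPKO it was the single call of the 24. In RD LFPKO the fibrinogen chains Fga (-0.53, adjusted p = 0.0124) and Fgg (-0.46, adjusted p = 0.0377) fell, and F11 (factor XI) and Cpb2, a brake on fibrinolysis, rose by 0.60 and 0.30. HFD LPKO had 4 higher, with F9 (0.38), Kng1 (0.41) and F13b (0.50) beside Pros1, where 3.60% of all genes were. HFD LFKO and HFD LFPKO had 1 and 2 higher (12.7% and 1.62% of all genes), and RD LFKO had 0 (1.07%). Against HFD WT the list's median was 0.27 in LPKO, beside 0.11 over all genes. In HFD WT against RD WT, 6 of the 24 were lower, near the 29.8% of all genes, with a list median of -0.26 beside -0.29 over all genes, whereas after scaling 3 were higher and 0 lower.

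Among 6 complement proteases that Serping1 meets, 4 were tested, and C1ra rose with it in RD LPKO (0.43, adjusted p = 0.0056) and RD LFPKO (0.36, adjusted p = 0.0161). The list's median in these was 0.20 in each, beside 0.04 and 0.01 over all genes. On the high-fat diet 0 of the 4 were called in either group against WT, and after scaling 1 was higher in HFD LFPKO. Of 3 neutrophil proteases listed as targets of the Serpina1 and Serpina3 families, Elane, Prtn3 and Ctsg, none reached a mean of 1 TPM. 

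The Serpina3 genes, relatives of alpha-1-antichymotrypsin, are a cluster of copies in mice. Serpina3k was the most abundant, at 5017 to 10856 TPM, and was not called in any comparison: its largest log2 difference was 0.49 in RD LPKO (adjusted p = 0.0938). Serpina3n, which is known to rise in inflammation, measured 213, 239.6 and 229 TPM in WT, 183, 172 and 177 in LFKO, 230.4, 277 and 231 in LPKO and 188, 199 and 175 in LFPKO on the regular diet. On the high-fat diet it measured 277, 352 and 364 TPM in WT, 287, 261 and 276 in LFKO, 377, 363 and 305 in LPKO and 279.7, 351 and 284 in LFPKO. All HFD WT libraries lay above all RD WT libraries. Serpina3n rose 1.46 times with high-fat feeding in WT (0.53 ± 0.12, adjusted p = 0.00416; 0.82 relative to the median gene), and the call held with any 1 library left out. Serpina3c (2.96 to 12.7 TPM) and Serpina3g (2.18 to 6.56 TPM) had no call.

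Serpina3m, whose reads are partly shared with Serpina3k, differed on the high-fat diet. On the regular diet its estimate was 215, 238 and 208 TPM in WT, 247, 247 and 204 in LFKO, 135, 189 and 138 in LPKO and 158, 205 and 189.5 in LFPKO. After high-fat feeding its estimate was 175, 135 and 216 TPM in WT, 326, 313 and 369.9 in LFKO, 352, 317 and 217 in LPKO and 155, 190.3 and 249 in LFPKO. HFD LFKO and HFD LPKO libraries all exceeded HFD WT, HFD LPKO replicate 3 by little, while RD LPKO libraries all lay below RD WT.

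Serpina3m rose 1.92 times in HFD LFKO (0.96 ± 0.20, adjusted p = 0.0057; 0.75 relative to the median gene) and 1.68 times in HFD LPKO (0.74 ± 0.20, adjusted p = 0.0312; 0.63 relative). HFD LFPKO lay below HFD LFKO (-0.78 ± 0.20, adjusted p = 0.0121; -0.65 relative). The sum of the Serpina3 genes was called in no comparison, and in place of Serpina3m it gave -0.039 in HFD LFKO and 0.33 in HFD LFPKO against HFD LFKO, the other sign in both. The first call was lost without HFD WT replicate 2 (adjusted p = 0.0562), the second without HFD WT replicate 1 or 2 or HFD LPKO replicate 1 or 2 (up to 0.207), and the last without HFD LFKO replicate 3 or HFD LFPKO replicate 1 (up to 0.0866).

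Since Serpina3n and other liver proteins are raised in the acute phase response, 14 genes of that response were read as well, all tested. In HFD WT against RD WT, where Serpina3n rose, 0 of 14 rose and Apcs and Orm2 fell (-2.08, adjusted p = 0.00899, and -1.28, adjusted p = 0.00942), where 29.8% of all genes fell; after scaling 1 of the 14 was lower. Against HFD WT, 2 of 14 rose and 1 fell in HFD LFKO (12.7% and 0.730% of all genes), and 3 rose in HFD LPKO (3.60%), namely Lcn2, Crp and Il1rn. In HFD LFPKO 5 of 14 rose, where 1.62% of all genes did, led by Lcn2 (2.56, adjusted p = 0.000179) and Orm2 (1.91, adjusted p = 0.00117), with a list median of 0.68 beside 0.07 over all genes, and Serpina3n was not called there. Hpx rose in RD LPKO (0.96, adjusted p = 0.000702), RD LFPKO (1.01, adjusted p = 0.000354) and HFD LFPKO (0.74, adjusted p = 0.00951).

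Serpinb1a, an intracellular inhibitor of neutrophil-type proteases that is also released by hepatocytes, had the widest range of the clade B genes. Its levels on the regular diet were 4.44, 3.84 and 9.63 TPM in WT, 3.16, 1.16 and 0.784 in LFKO, 11.4, 7.43 and 8.99 in LPKO and 1.65, 3.02 and 2.13 in LFPKO. On the high-fat diet they were 0.52, 0.209 and 1.23 TPM in WT, 0.0304, 1.02 and 0.836 in LFKO, 8.71, 6.84 and 10.6 in LPKO and 0.827, 1.25 and 2.59 in LFPKO. In HFD LPKO every library exceeded 6 TPM, while no HFD library of the other groups reached 3 TPM.

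Mean Serpinb1a in HFD LPKO was 13.4 times that in HFD WT (log2 difference 2.58 ± 0.35, adjusted p = 9.7e-05; 2.48 relative to the median gene) and 5.60 times that in HFD LFPKO (-1.97 ± 0.35, adjusted p = 0.013). In RD WT it was 9.15 times that in HFD WT (-2.03 ± 0.35, adjusted p = 0.000748; -1.74 relative to the median gene) and 3.51 times that in RD LFKO (-1.37 ± 0.35, adjusted p = 0.0497). The calls for HFD LPKO against WT and for diet held with any 1 library left out. The LFPKO call was lost without HFD LPKO replicate 1 or HFD LFPKO replicate 1 or 2 (adjusted p up to 0.0803), and the RD LFKO call, barely under the threshold, without any RD WT library or RD LFKO replicate 2 or 3 (up to 0.251). In RD LPKO the difference from WT was 0.63 (adjusted p = 0.349), and the test of a change between diets in the LPKO effect called no serpin.

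Serpinb6b, the least abundant member described, also differed in HFD LPKO. Serpinb6b on the regular diet was 2.26, 1.54 and 0.921 TPM in WT, 0.919, 1.15 and 1.14 in LFKO, 3.88, 2.43 and 2.53 in LPKO and 2.06, 1.14 and 3.07 in LFPKO. Serpinb6b on the high-fat diet was 1.35, 1.01 and 1.15 TPM in WT, 0.979, 0.885 and 0.809 in LFKO, 2.06, 3.59 and 3.51 in LPKO and 0.716, 0.941 and 0.731 in LFPKO. HFD LPKO libraries lay above all others of that diet. Its mean was 2.61 times that of HFD WT (0.88 ± 0.21, adjusted p = 0.0201; 0.77 relative to the median gene) and 3.84 times that of HFD LFPKO (-1.15 ± 0.21, adjusted p = 0.0183). These calls were lost without HFD WT replicate 2 or 3 or HFD LPKO replicate 2, and without HFD LPKO replicate 2 or HFD LFPKO replicate 1 or 2 (adjusted p up to 0.0976 and 0.105).

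Serpinb8, an inhibitor of furin, was higher in the FoxO1-deficient livers of the high-fat diet. On the regular diet Serpinb8 was 1.23, 1.40 and 2.71 TPM in WT, 3.01, 3.73 and 2.59 in LFKO, 0.93, 1.32 and 1.26 in LPKO and 2.33, 2.09 and 1.93 in LFPKO. With high-fat feeding Serpinb8 was 0.941, 0.485 and 1.11 TPM in WT, 1.92, 2.07 and 2.77 in LFKO, 1.08, 1.06 and 1.17 in LPKO and 2.14, 1.47 and 2.37 in LFPKO. On the high-fat diet each LFKO and LFPKO library lay above each WT and each LPKO library. Serpinb8 rose 2.67 times in HFD LFKO (0.82 ± 0.18, adjusted p = 0.00869; 0.62 relative to the median gene) and 2.36 times in HFD LFPKO (0.70 ± 0.18, adjusted p = 0.0331). It was lower in HFD WT than in RD WT (-0.57 ± 0.18, adjusted p = 0.0249; -0.28 relative), but not after scaling (adjusted p = 0.158) or without RD WT replicate 3 or HFD WT replicate 2. The LFKO call was lost without HFD WT replicate 2 or HFD LFKO replicate 3, and the LFPKO call without HFD WT replicate 1 or 2 or HFD LFPKO replicate 1 or 3 (up to 0.204).

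The remaining clade B genes gave a single call each. Serpinb9, an inhibitor of granzyme B, measured 2.07, 3.43 and 2.90 TPM in WT, 3.12, 3.80 and 2.87 in LFKO, 5.42, 4.28 and 4.59 in LPKO and 4.67, 3.07 and 4.37 in LFPKO on the regular diet. With high-fat feeding Serpinb9 measured 2.68, 2.33 and 3.22 TPM in WT, 2.37, 2.87 and 3.14 in LFKO, 3.52, 3.32 and 3.70 in LPKO and 2.36, 3.52 and 2.78 in LFPKO. RD LPKO lay above RD WT without overlap. Serpinb9 rose 1.70 times in RD LPKO (0.61 ± 0.16, adjusted p = 0.0214), but not without RD WT replicate 1 or RD LPKO replicate 1 or 3 (up to 0.121). Serpinb6a, an inhibitor of cathepsin G, measured 6.62, 10.4 and 8.48 TPM in WT, 7.21, 8.57 and 6.67 in LFKO, 8.88, 5.84 and 9.09 in LPKO and 6.49, 7.88 and 5.97 in LFPKO on the regular diet. With high-fat feeding Serpinb6a measured 7.27, 4.32 and 4.83 TPM in WT, 6.30, 8.61 and 7.15 in LFKO, 6.38, 6.54 and 5.29 in LPKO and 6.13, 6.85 and 4.79 in LFPKO. HFD WT replicate 1 overlapped RD WT, and the lower mean in HFD WT (-0.56 ± 0.19, adjusted p = 0.0317; -0.27 relative to the median gene) was not called after scaling (adjusted p = 0.367) or without RD WT replicate 2 or 3 or HFD WT replicate 2 or 3.

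Clade B serpins are also made by blood and immune cells, whose markers were summed beside them. Kupffer cell and macrophage markers, 12 genes, summed to 168 to 271 TPM in RD WT, 95.4 to 132 in RD LPKO, 86.0 to 194 in HFD WT and 73.2 to 229 in HFD LPKO. Neutrophil markers, 8 genes, summed to 2.59 to 24.4 TPM in HFD WT and 2.18 to 7.82 in HFD LPKO, with Mpo at 0 in all 3 HFD LPKO libraries, and T, B and NK cell markers to 0.694 to 2.45 and 1.15 to 2.48 TPM. In HFD LPKO, where Serpinb1a rose by 2.58, 0 of 12 Kupffer cell markers were called against WT, with a median log2 difference of 0.01. Of all genes, 3.60% were higher there and 1.13% lower. In RD LPKO, where Serpinb9 rose, 1 of those 12 fell (2.33% of all genes) and the median was -0.80. The part of these cells in either result was not tested.

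**Figure D5:**
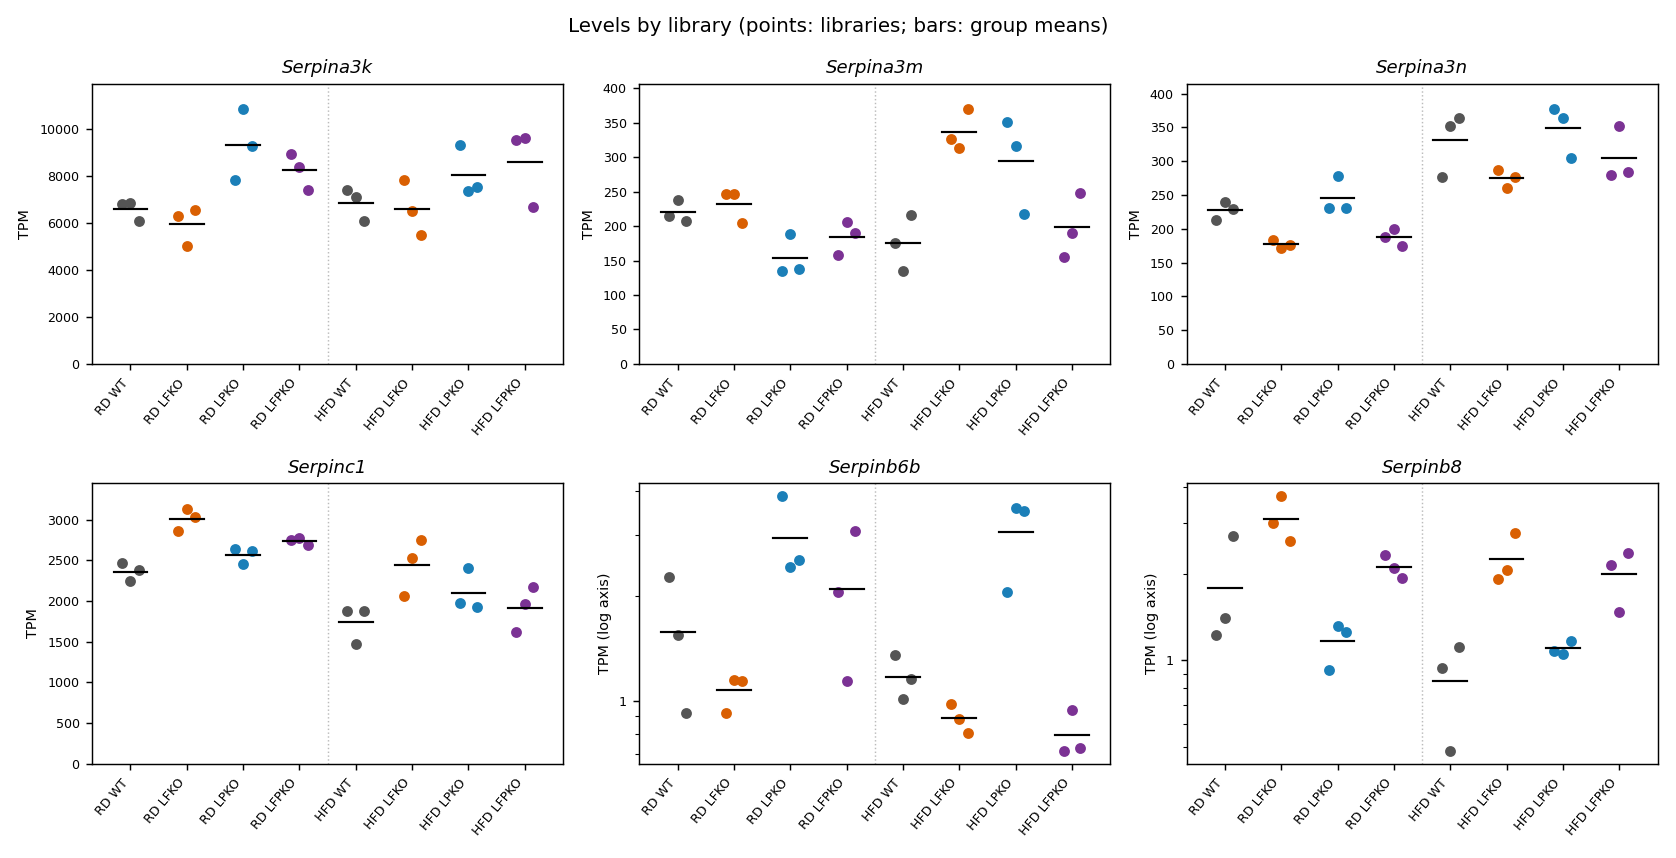
TPM of Serpina3k, Serpina3m, Serpina3n and Serpinc1 (linear axes from 0) and of Serpinb6b and Serpinb8 (log axes) in each library, with points for libraries and bars for group means of 3. Serpina3m lies below the grey WT points in RD LPKO (mean 154 against 220.4 TPM) and above them in HFD LPKO (295 against 176 TPM), and Serpinb8 is high in both FoxO1-deficient groups of the high-fat diet (2.25 and 1.995 TPM against 0.845 TPM).

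Serpinf1 (pigment epithelium-derived factor), a secreted protein that inhibits no protease and restrains blood vessel growth, ranged from 625 to 1057 TPM and had its smallest adjusted p, 0.0685, in HFD LPKO against HFD WT (0.43). Serpinh1 (HSP47), the collagen chaperone of the endoplasmic reticulum, ranged from 2.14 to 5.46 TPM and came nearest to a call in HFD WT against RD WT (-0.48, adjusted p = 0.0619). There, where 29.8% of all genes fell, 4 of 6 tested collagen genes fell, Col1a2 by 0.81 (adjusted p = 0.0159) and Col6a1 by 0.62 (adjusted p = 0.0174), and 9 of 10 tested stellate cell and fibroblast markers fell; after scaling these counts were 0 and 5. In HFD LFKO, Col4a1 and Col4a2 rose (0.95, adjusted p = 0.0124, and 0.88, adjusted p = 0.0105), though 0 of the 6 collagens were called after scaling, and Serpinh1 was at 2.63 ± 0.24 TPM against 2.68 ± 0.61 TPM in HFD WT.

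Serpina11, a secreted serpin of little known function, was the steadiest of the others at 43.7 to 76.4 TPM, with log2 differences from -0.06 to 0.19 on the deposited scale. The pseudogene Serpina4-ps1 was the least steady, from 4.80 to 359 TPM. Its group means were 50.2 ± 23.4 TPM in RD WT, 10.3 ± 7.2 TPM in RD LFKO and 169 ± 67 TPM in HFD WT, and the log2 differences of -2.26 (adjusted p = 0.143) and 1.76 (adjusted p = 0.0757) were not called because replicates spread so widely. In HFD LFPKO it stood at 359, 49.8 and 34.3 TPM.

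Of the 41 genes below 1 TPM, 4 are the remaining pseudogenes. Serpina5 (protein C inhibitor) averaged 0.160 TPM. Serpina1f, Serpina16 and 17 others, among them Serpinb5, Serpini2 and the Serpinb3 genes, were at 0 in all libraries. None of the 41 was tested.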

How the data were processed

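Total RNA from 24 liver libraries was sequenced as stranded mRNA libraries, per the labels' protocols. The authors' deposited values are TPM per gene, made with kallisto on GRCm38 (mm10), per the submitters' processing notes; the software version and its annotation: not given in the sources used here. TPM keeps no read depth, so counting error is unknown. A row with no gene name held 0.0104% to 0.0250% of TPM and was left out.

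From these, genes with a mean of at least 1 TPM (10551) were put through limma 3.58.1 (R 4.3.3) on log2(TPM + 1), in a single fit of 8 groups with a trended prior, 16 residual degrees of freedom and Benjamini-Hochberg adjustment within each of 14 comparisons. With 3 libraries a group, the smallest p an exact permutation test allows is 0.1. Each gene of the family at that level is described, with every library's value where it was called against WT or between diets; of partner lists up to 4 called genes with the smallest adjusted p are named. The members and gene lists were chosen with earlier results of these data known. The fit was tested on simulated data. Sequence identity, 31-base words and motifs were computed from GENCODE M21 and RefSeq. Alternatives were a pseudocount of 0.1, other filters, scaling, leaving out Mup and mitochondrial transcripts, fitting the compared groups alone, a replicate block, family sums and leaving out each library. The values of 1 gene below the tested level are not reported here. Figures were drawn with matplotlib.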

Additional observations from a re-analysis of the deposited data

Results flagged for a closer look

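Serpina3m stood out because its LPKO libraries lay on opposite sides of WT on the 2 diets, although it was not called in RD LPKO on the deposited scale. All 3 RD LPKO libraries (135, 189 and 138 TPM) lay below all RD WT libraries (208 to 238 TPM), and all 3 HFD LPKO libraries (352, 317 and 217 TPM) lay above all HFD WT libraries (135 to 216 TPM). The difference between the log2 effects was 1.272 ± 0.2762 (SE), with a limma adjusted p of 0.0659, so the difference between diets did not pass the threshold. It did so after median-of-ratios scaling, at 1.19 and an adjusted p of 0.0323. Serpina3m shares 35.0% of its 31-base words with other genes, mostly Serpina3k. The part of shared reads in this pattern was not tested beyond the Serpina3 sum, for which the difference between diets was -0.22 (adjusted p = 0.883).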

How the results depend on the processing

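Of the 44 calls on single genes, none changed sign when the same gene was refitted. The direction and the call held for 42 with a pseudocount of 0.1, 37 after median-of-ratios scaling, 38 without Mup and mitochondrial transcripts, 34 of 44 with no filter, 34 of 34 at a mean TPM of at least 5, and 24 when only the compared groups were fitted, a fit with fewer samples. In place of Serpina3m, the Serpina3 sum gave -0.039 (HFD LFKO against HFD WT) and 0.33 (HFD LFPKO against HFD LFKO); the cause was not tested.

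Counts of called serpins moved as follows. With the compared groups alone they were 4 (7 in the full fit) for HFD LFKO against HFD WT, 3 (6) for HFD LFPKO against HFD LFKO, 0 (2) for HFD LFPKO against HFD LPKO, 0 (3) for HFD LFPKO against HFD WT, 2 (6) for HFD LPKO against HFD WT and 6 (2) for RD LFKO against RD WT. Without Mup and mitochondrial transcripts they were 13 (6) for HFD LFPKO against HFD LFKO, 5 (3) for HFD LFPKO against HFD WT, 8 (3) for RD LFPKO against RD LFKO and 1 (0) for LPKO by diet. After scaling they were 5 (3) for RD LFPKO against RD LFKO and 1 (0) for LPKO by diet. A pseudocount of 0.1 left 1 (2) for HFD LFPKO against HFD LPKO and 1 (2) for RD LFKO against RD WT. No filter left 5 (8) for HFD WT against RD WT and 1 (2) for RD LFKO against RD WT, and a mean TPM of at least 5 left 0 (2) for HFD LFPKO against HFD LPKO and 1 (2) for RD LFKO against RD WT. These counts, and those of the next paragraph, stand without the share of all genes called under the same setting. They are therefore not read as particular to serpins. The causes were not tested.

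Leaving out each library in turn gave 2 to 8 calls for HFD LFKO against HFD WT, 0 to 3 for HFD LFPKO against HFD LPKO, 0 to 4 for HFD LFPKO against HFD WT, 2 to 6 for HFD LPKO against HFD WT, 2 to 8 for HFD WT against RD WT, 0 to 1 for LPKO by diet, 1 to 2 for RD LFKO against RD WT, 1 to 3 for RD LFPKO against RD WT and 1 to 4 for RD LPKO against RD WT. In these refits 177 of 264 gene calls held and none changed sign. Losses gathered on HFD WT replicate 2, without which most calls that used HFD WT were lost. Those that held without it were Serpine2 and Serpina12 in HFD LFKO, Serpinb1a and Serpine2 in HFD LPKO, and Serpina3n and Serpinb1a for diet. Of the 24 libraries, it had the largest Mup share, 30.7%, and the fewest genes at 1 TPM or more, 9749. The cause of these losses was not tested.

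Replicate numbers are shared between groups, and deviations from group means were compared between same-numbered libraries. In 0 of 11 comparisons was every pair's correlation over 0.1, and the correlations ran from -0.197 to 0.387. HFD LFPKO against HFD LFKO came near, with 0.319, 0.0932 and 0.387 for numbers 1, 2 and 3. There, and in RD LFPKO against RD WT, each LFPKO library correlated best with the library of its own number. With a replicate block, 43 of 44 calls held, and Serpina10 in HFD LPKO was lost. TPM gives no read depth, so what depth limits could not be measured, least of all for clade B genes near 1 TPM.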
